A study of Mus musculus with 8 samples.

Results

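The 32 genes described here encode nucleolar proteins, factors that process ribosomal RNA (rRNA) and subunits of RNA polymerase I, the enzyme that transcribes rRNA. They were chosen by symbol, from a list of genes with these roles, with earlier results of these data known. All 32 were matched by Entrez Gene number among the 24454 genes listed for each library, and all 32 passed the filter on low values.

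The study compared 4T1 cells, a line of mouse mammary carcinoma cells, after RNA interference against either kinase of the MEK5-ERK5 cascade. The control group, shCTRL, carried a non-targeting vector and had 3 libraries. The group shMEK5 carried a hairpin against MEK5, encoded by Map2k5, and had 2 libraries, and the group shERK5 carried a hairpin against ERK5, encoded by Mapk7, and had 3. All 3 groups were infected with lentivirus and selected with puromycin, so that infection and selection are shared by controls and knockdowns. The libraries of each knockdown are titled for 1 hairpin (shMEK5-2 and shERK5-1), so that an effect of the target and of that hairpin cannot be told apart. Nothing in the labels ties replicates to separate cultures, so p-values speak only to how these libraries vary, and that variation may be technical. Total RNA was depleted of ribosomal RNA before sequencing, so that pre-rRNA and mature rRNA were not measured. In such bulk RNA, fewer cells expressing a gene and less of its RNA per cell cannot be told apart.

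Ribosomes are built in the nucleolus, where RNA polymerase I transcribes a long precursor that holds the RNAs of both subunits. Small nucleolar ribonucleoprotein particles (snoRNPs) modify the precursor: box C/D particles methylate riboses, and box H/ACA particles convert uridines to pseudouridines. A large assembly called the small subunit processome cleaves and folds the part that becomes the small subunit, and a separate series of particles assembles the large subunit. Many of these genes are textbook targets of the transcription factor Myc, which binds the sequence CACGTG, the E-box.

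Because E-boxes are the sequence most often tied to this gene group, the RefSeq windows of 250 bases before to 50 bases after each transcription start (build GRCm38.p6) were searched for CACGTG. This sequence reads the same on both strands, and 1 window per gene was used. Windows were found for 27 of the 32 genes, the others being Npm1, Fbl, Rrp12, Bop1 and Rrs1. The E-box was present in 7 of the 27 windows (25.9%), against 7.24% of all 27025 genes with a window and 10.6% of the 9246 tested genes with one. The 7 matches are printed 5′ to 3′ on the gene's own strand, with the E-box in capitals, because their position can be compared among genes.
Mybbp1a: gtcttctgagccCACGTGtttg
Wdr43: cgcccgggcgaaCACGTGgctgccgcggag
Utp4: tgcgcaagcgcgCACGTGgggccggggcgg
Utp20: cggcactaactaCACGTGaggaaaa
Tsr1: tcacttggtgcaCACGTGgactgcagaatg
Pes1: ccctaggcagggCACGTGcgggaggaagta
Nop2: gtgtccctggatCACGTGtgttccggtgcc

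These stretches lie at chr11:72441355-72441376 (plus strand) for Mybbp1a, chr17:71616220-71616249 (plus) for Wdr43, chr8:106893643-106893672 (plus) for Utp4 and chr10:88826765-88826789 (minus) for Utp20. Those of Tsr1, Pes1 and Nop2 lie at chr11:74898092-74898121, chr11:3963965-3963994 and chr6:125131811-125131840, all on the plus strand. In 6 of the 7 genes (85.7%) the first E-box began downstream of the annotated start. Counted along the genome from that start, it began at base 3 in Pes1, 16 in Utp4, 18 in Wdr43, 25 in Tsr1, 38 in Utp20 and 41 in Mybbp1a. A stretch of the window after the start was sought in the GENCODE transcripts of each gene. It was found for all of the 7 but Mybbp1a and Nop2, so that base 41 of Mybbp1a was not shown to lie in a transcript. In Nop2 it began 60 bases before the start. Among the 982 tested genes with an E-box in the window, the first match lay downstream of the start in 14.3%, and among all 1957 such genes in 13.6%. The related 6-base sequences CATGTG and CACATG, each the reverse complement of the other and neither overlapping a CACGTG match, were found in 7 of the 27 windows (25.9%), against 14.1% of all genes and 8.04% of tested genes. Of the 7 genes, Mybbp1a, Wdr43 and Nop2 passed the test in both knockdowns, and Utp4, Utp20, Tsr1 and Pes1 in neither. These matches describe the letters in the window only.

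Each library held between 41397315 and 53714288 reads assigned to genes, and values are reads per 1000000 assigned reads (CPM), which do not correct for gene length. Levels are therefore compared between groups for 1 gene and never between genes. The hairpins were visible in their targets: Map2k5 was at 35.2, 37.0 and 36.8 CPM in shCTRL and at 14.1 and 14.4 CPM in shMEK5, and Mapk7 was at 25.6, 28.6 and 26.1 CPM in shCTRL and at 6.59, 6.33 and 6.66 CPM in shERK5. Mapk7 was also lower in shMEK5, at 20.4 and 18.7 CPM. The 7 epithelial markers summed to 1700 to 1883 CPM in shCTRL, 1276 to 1341 in shMEK5 and 1642 to 1688 in shERK5. These sums are mostly Krt8 and Krt18, which fell, and hide rises of other epithelial markers: in shERK5 4 of the 7 rose, all past 2-fold, and 2 fell (median 1.02 on the log2 scale), and in shMEK5 3 rose and 2 fell (median 0.10). Cldn4, for example, was at 65.0, 73.4 and 70.1 CPM in shCTRL, 77.6 and 79.3 CPM in shMEK5, and 290.7, 285 and 287 CPM in shERK5. Of the 7 epithelial markers 85.7% passed in shERK5, beside 63.3% of all tested genes, of which 32% rose and 3.6% changed by 2-fold. In shMEK5 71.4% of the 7 passed, beside 48.7% of all tested genes, of which 23.1% rose. Of 6 fibroblast markers only Pdgfra (22.5 to 46.3 CPM) reached 1 CPM, with Dcn, Lum and Thy1 at 0 in all 8 libraries. Of 5 leukocyte markers only Cd68 (1.84 to 3.67 CPM) did, with Adgre1 and Cd3e at 0, and none of 4 endothelial markers did. Of 17 proliferation genes 14 fell and 2 rose in shERK5 (94.1% passing, beside 63.3% of all tested genes), and 4 fell and 3 rose in shMEK5 (41.2%, beside 48.7%). Their summed level was 3511 to 4037 CPM in shCTRL, 3444 to 3529 CPM in shMEK5 and 2224 to 2360 CPM in shERK5, and the part of these epithelial and proliferation differences in the results below was not tested.

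Ribosome biogenesis genes were mostly higher in both knockdowns, by small amounts. In shMEK5, 16 of the 32 genes rose, 1 fell (Npm1) and 15 did not pass the test. In shERK5, 18 rose, 3 fell (Npm1, Ncl and Dkc1) and 11 did not pass. The test was limma on log2(CPM + 1), and a gene passed at an adjusted p under 0.05. Log2 fold changes below are on that scale. None of the 32 changed by 2-fold in any comparison. Such changes were rare throughout: of all tested genes 2.7% reached 2-fold in shMEK5 and 3.6% in shERK5, both relative to the controls. When shERK5 was set beside shMEK5, 1.6% did. The median size of change over all tested genes, direction ignored, was 0.20 in shMEK5 and 0.25 in shERK5. Neither the small amounts nor the lack of a 2-fold change thus sets the 32 genes apart.

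The counts of rises and falls stand against a background in which a large share of all genes passed. Among 11623 tested genes 48.7% passed in shMEK5 against shCTRL (23.1% up and 25.6% down), and 63.3% in shERK5 against shCTRL (32% up and 31.3% down). The share of the 32 genes that passed in either direction, 53.1% and 65.6%, was close to that background. By direction, 16 of the 32 (50%) rose in shMEK5 and 18 (56.2%) in shERK5, beside the 23.1% and 32% of all tested genes. Since the genes were chosen with earlier results of these data known, this comparison is a description and not independent support. Their median log2 fold change was 0.21 in shMEK5 (quartiles 0.04 and 0.29) and 0.23 in shERK5 (0.10 and 0.32), beside medians of -0.02 and 0.00 over all tested genes. Both knockdowns were compared with the same 3 shCTRL libraries, so the pair of comparisons is not independent.

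In the medians the direction was visible library by library. The median difference of the 32 genes from the shCTRL mean was, in order of replicate number, -0.05, 0.00 and 0.05 for shCTRL, 0.16 and 0.22 for shMEK5, and 0.15, 0.31 and 0.18 for shERK5 (log2 scale). Over all tested genes the same medians stayed between -0.02 and 0.02. Above the shCTRL mean stood 23 and 28 of the 32 genes in the shMEK5 libraries and 26, 28 and 27 in the shERK5 libraries. The control libraries themselves had 11, 16 and 25, so by this count shCTRL replicate 3 exceeded shMEK5 replicate 1. The count was not made over all tested genes. The spread between replicates of a group was small for most of the 32 genes, with a median coefficient of variation in CPM of 5.58% in shCTRL, 4.82% in shMEK5 and 5.12% in shERK5, and a highest one of 17.7%, 15.9% and 20.9%. Single libraries still stood apart: shMEK5 replicate 2 was the higher of its pair for 26 of 32 genes, and shERK5 replicate 2 was the highest of its group for 19 and the lowest for 8. Leaving out shMEK5 replicate 2 ended many of the upward calls in shMEK5, which are named gene by gene below. The median log2 fold change of the 32 genes was then 0.16, resting on 1 shMEK5 library.

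**Figure D1:**
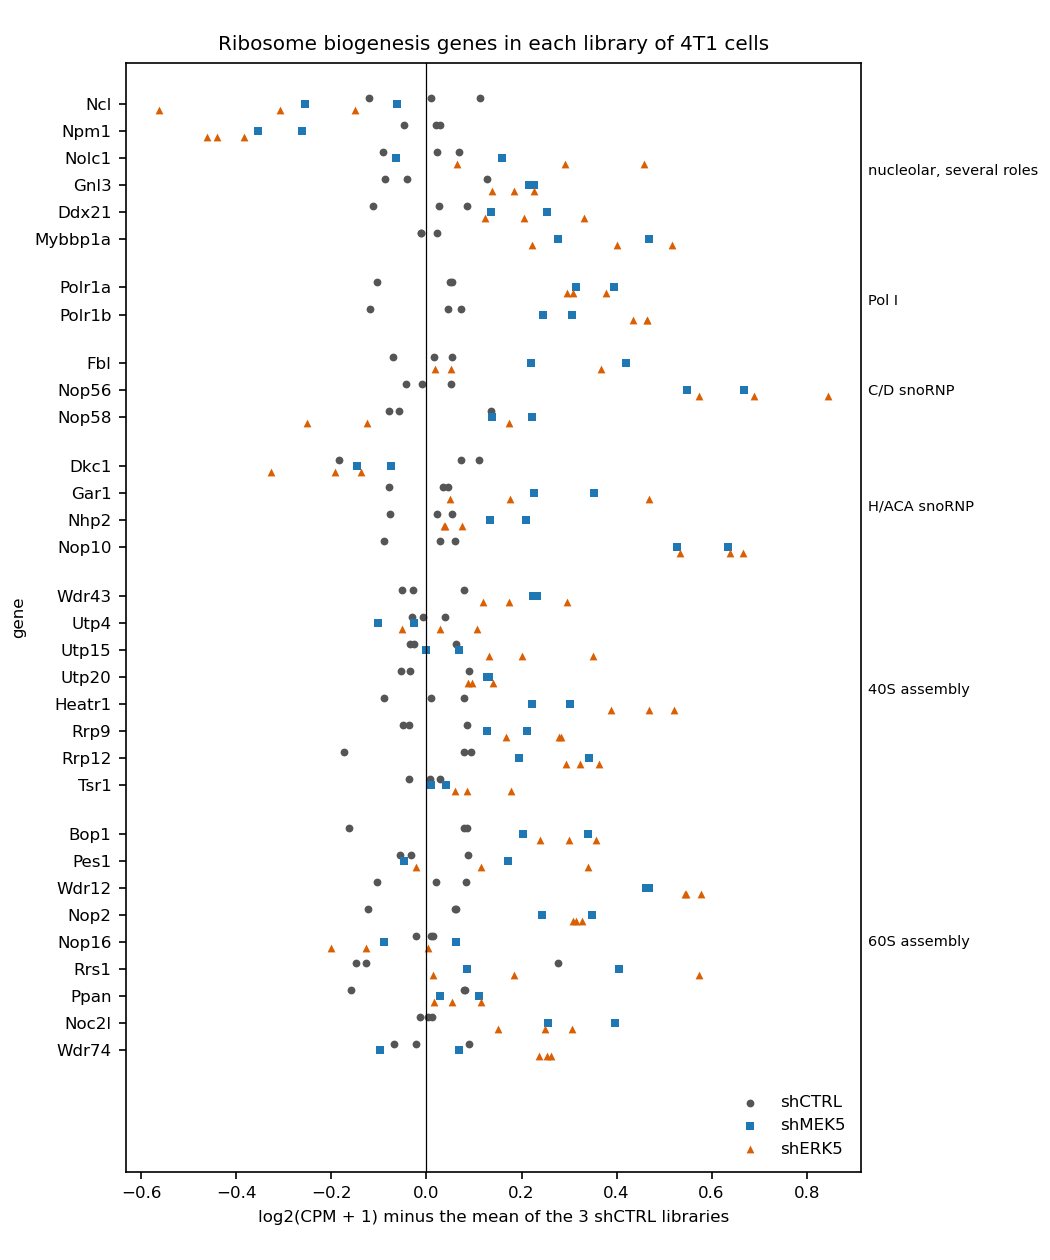
Difference of each of the 32 genes from the mean of the 3 shCTRL libraries, on the log2(CPM + 1) scale (horizontal axis), for every library (grey circles shCTRL, blue squares shMEK5, orange triangles shERK5). Genes are grouped by role on the vertical axis; most squares and triangles lie right of 0, while those of Npm1 lie left of it.

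The nucleolar proteins with several roles split between both directions. Npm1, or nucleophosmin, an abundant nucleolar chaperone of ribosomal particles, fell in both knockdowns. It stood at 1408, 1335 and 1399 CPM in shCTRL, 1079 and 1151 CPM in shMEK5, and 1057, 1002 and 1016 CPM in shERK5. No knockdown library reached the lowest control. The change came to -0.31 on the log2 scale (SE 0.049, limma adjusted p = 0.000561) in shMEK5 and -0.43 (SE 0.044, limma adjusted p = 1.63e-05) in shERK5. Npm1 is known to have processed copies, although none carries its name in the gene table used here, and the sources do not state how shared reads were counted.

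Ncl, or nucleolin, binds pre-rRNA and acts in its transcription and processing. It was at 269, 295 and 316 CPM in shCTRL, 280.3 and 245 CPM in shMEK5, and 263, 198 and 236 CPM in shERK5. The shERK5 libraries all lay below the lowest control, shERK5 replicate 2 furthest, whereas the shMEK5 libraries overlapped the controls. Ncl fell by 0.34 on the log2 scale in shERK5 (SE 0.107, limma adjusted p = 0.0219). Leaving out shCTRL replicate 3 ended that call (adjusted p = 0.0751). Its value in shMEK5 was -0.16 (SE 0.120, adjusted p = 0.306).

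The values of the other 4 proteins of this group lay above 0 in both knockdowns. Mybbp1a, which binds Myb proteins and takes part in pre-rRNA processing, was at 286, 280.1 and 280.0 CPM in shCTRL, 342 and 391 CPM in shMEK5, and 329.5, 404 and 373 CPM in shERK5. Both knockdowns lay above every control and overlapped each other. It rose by a log2 fold change of 0.37 (SE 0.083, limma adjusted p = 0.00418) in shMEK5 and 0.38 (SE 0.074, adjusted p = 0.00127) in shERK5, the former lost without shMEK5 replicate 2 (adjusted p = 0.0538). Gnl3, the GTPase nucleostemin, rose by 0.22 in shMEK5 and 0.18 in shERK5. Leaving out shMEK5 replicate 1 or 2 ended the first call (adjusted p = 0.0659 and 0.0797), and leaving out shCTRL replicate 1, shCTRL replicate 2 or shERK5 replicate 3 ended the second (0.0575, 0.0602 and 0.05). Ddx21, an RNA helicase of the nucleolus, rose by 0.22 in shERK5 (limma adjusted p = 0.0148) but not without shCTRL replicate 2 (0.064) or shERK5 replicate 2 (0.0538). In shMEK5 its value was 0.19 (adjusted p = 0.0532), and it passed without shCTRL replicate 1 (0.0329), shERK5 replicate 1 (0.0314) or shERK5 replicate 2 (0.033). Nolc1, a chaperone of snoRNPs, was at 147, 132 and 143 CPM in shCTRL and at 147, 193 and 172 CPM in shERK5. Its groups overlapped and its call in shERK5 (log2 fold change 0.27, adjusted p = 0.0397) was lost without any of shCTRL replicates 1, 2 and 3 and shERK5 replicates 2 and 3 (adjusted p between 0.0611 and 0.117). In shMEK5 Nolc1 stood at 134 and 157 CPM, with a log2 fold change of 0.05 (adjusted p = 0.746).

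Both RNA polymerase I subunits on the list rose in both knockdowns. Polr1a, the largest subunit, was at 171, 191 and 191 CPM in shCTRL, 242 and 229 CPM in shMEK5, and 226, 228 and 239.5 CPM in shERK5. Both knockdowns lay above every control and overlapped each other. The log2 fold changes were 0.36 (SE 0.061, limma adjusted p = 0.000838) and 0.33 (SE 0.054, adjusted p = 0.000412).

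Polr1b, the second largest subunit, was at 165, 185 and 189 CPM in shCTRL, 213 and 222 CPM in shMEK5, and 248, 248 and 243 CPM in shERK5. The groups did not overlap, and the shERK5 libraries were the highest. It rose by a log2 fold change of 0.28 (SE 0.061, limma adjusted p = 0.00389) in shMEK5 and 0.46 (SE 0.055, adjusted p = 4.82e-05) in shERK5. These calls held under every alternative tried, including each library left out in turn.

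The proteins of box C/D particles gave the largest rise and an uneven response. Nop56, a core protein of these particles (Entrez Gene 67134, chr2:130274367-130279313 of GRCm38.p6), was at 489, 501 and 522 CPM in shCTRL, 737 and 801 CPM in shMEK5, and 750.4, 905 and 813 CPM in shERK5. Every knockdown library lay well above every control, and shERK5 replicate 2 was the highest. The group means were 153% of the control mean in shMEK5 and 163% in shERK5, with log2 fold changes of 0.61 (SE 0.074, limma adjusted p = 0.000101) and 0.70 (SE 0.066, adjusted p = 9.24e-06). The gene overlaps Idh3b in the annotation.

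Nop58, the paralogue that sits beside Nop56 in the same particle, did not pass in either knockdown. It was at 558, 566 and 647 CPM in shCTRL, 687 and 648 CPM in shMEK5, and 664, 494 and 539.6 CPM in shERK5. The shERK5 libraries disagreed, replicate 1 lying above and replicates 2 and 3 below all controls. In shMEK5 the log2 fold change was 0.18 with an SE of 0.118 (limma adjusted p = 0.238), and in shERK5 -0.07 with an SE of 0.105 (adjusted p = 0.596). Without shERK5 replicate 1 the latter became -0.19 (adjusted p = 0.0338) and the former passed (adjusted p = 0.0487).

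Fbl, or fibrillarin, the ribose methyltransferase of the particle, was at 27.4, 25.1 and 26.6 CPM in shCTRL, 30.9 and 35.6 CPM in shMEK5, and 26.7, 34.3 and 27.4 CPM in shERK5. The shMEK5 libraries lay above the controls, while in shERK5 only replicate 2 did. It rose in shMEK5 by a log2 fold change of 0.32 (SE 0.106, limma adjusted p = 0.029). It no longer passed without shCTRL replicate 2 (adjusted p = 0.0845), shCTRL replicate 3 (0.0631) or shMEK5 replicate 2 (0.224), and with no filter on low values (0.0615). In shERK5 its value was 0.15 (adjusted p = 0.202). Fbl has a named pseudogene, Fbl-ps2, with which it may share reads.

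**Figure D2:**
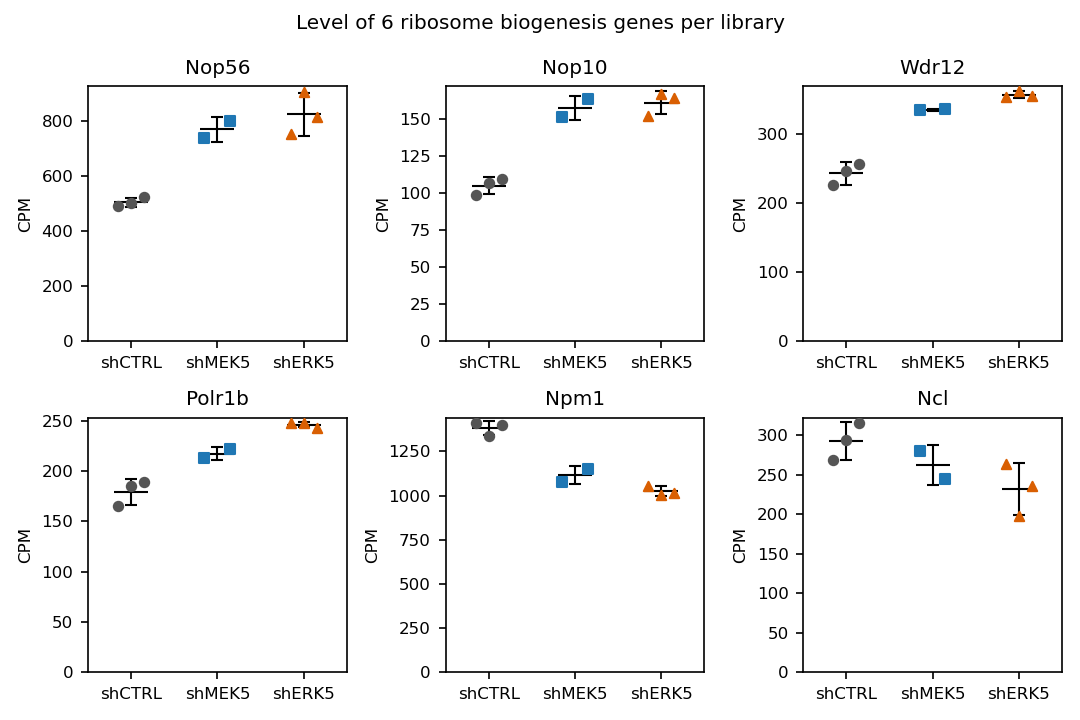
CPM (vertical axis, starting at 0) of Nop56, Nop10, Wdr12, Polr1b, Npm1 and Ncl in every library, by group; horizontal bars are group means and error bars are SD (n = 3, 2 and 3). Nop56 ran from 489 to 522 CPM in shCTRL and from 737 to 905 CPM in the knockdowns, while Npm1 lay between 1335 and 1408 CPM in shCTRL and at 1002 to 1151 CPM in the knockdowns.

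The 4 proteins of box H/ACA particles did not move together either. Nop10, the smallest of them (Entrez Gene 66181, chr2:112261926-112262898), was at 98.7, 107 and 109.5 CPM in shCTRL, 152 and 164 CPM in shMEK5, and 152.5, 167 and 164 CPM in shERK5. All knockdown libraries lay above all controls, and both knockdowns overlapped. It rose by a log2 fold change of 0.58 (SE 0.064, limma adjusted p = 5.08e-05) in shMEK5 and 0.61 (SE 0.057, adjusted p = 8.42e-06) in shERK5. Dkc1, or dyskerin, the pseudouridine synthase itself, was at 102, 83.3 and 99.7 CPM in shCTRL, 89.9 and 85.5 CPM in shMEK5, and 86.0, 82.8 and 75.3 CPM in shERK5. Its groups overlapped through shCTRL replicate 2. Dkc1 fell by 0.22 on the log2 scale in shERK5 (SE 0.080, limma adjusted p = 0.0344). It no longer passed without shCTRL replicate 1 (adjusted p = 0.119), shCTRL replicate 3 (0.118), shERK5 replicate 2 (0.0564) or shERK5 replicate 3 (0.13). In shMEK5 Dkc1 was at -0.11 (adjusted p = 0.33), and it passed only without shCTRL replicate 2 (-0.20, adjusted p = 0.0445).

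Nhp2, a core protein of these particles, rose in shMEK5, from 113, 124 and 121 CPM in shCTRL to 130.5 and 138 CPM (log2 fold change 0.17, limma adjusted p = 0.0239). That call was lost without shCTRL replicate 1 (adjusted p = 0.0596) or shMEK5 replicate 2 (0.178), and in shERK5, at 125, 122 and 122 CPM, the value was 0.05 (adjusted p = 0.394). Gar1, the fourth protein, was at 19.2, 17.7 and 19.4 CPM in shCTRL, 22.1 and 24.2 CPM in shMEK5, and 19.5, 26.3 and 21.3 CPM in shERK5. No group overlapped with the controls, but the log2 fold changes of 0.29 (limma adjusted p = 0.0508) and 0.23 (adjusted p = 0.0615) missed the threshold. Gar1 passed in shMEK5 without shERK5 replicate 1 (adjusted p = 0.0211) or 2 (0.0113), through the shared estimate of spread, and in shERK5 without shERK5 replicate 1 (0.00973). It was the least deeply covered of the 32 genes, with 2643, 2067 and 3395 reads summed over the libraries of shCTRL, shMEK5 and shERK5.

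Among the 8 genes of the small subunit processome and of small subunit maturation, 4 rose in shMEK5 and 5 in shERK5, and none fell. The shares passing, 50% and 62.5%, were close to the 48.7% and 63.3% of all tested genes, of which 23.1% and 32% rose. Heatr1, Utp15, Utp4 and Wdr43 belong to the module that binds the precursor first and is tied to its transcription. Heatr1 was at 181, 194 and 204 CPM in shCTRL, 225 and 238 CPM in shMEK5, and 252.5, 277 and 267 CPM in shERK5. The groups did not overlap. It rose by a log2 fold change of 0.26 (SE 0.063, limma adjusted p = 0.00589) in shMEK5 and 0.46 (SE 0.056, adjusted p = 5.24e-05) in shERK5. The shMEK5 call was lost without shMEK5 replicate 2 (adjusted p = 0.0621).

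Utp15 was at 114, 107 and 107 CPM in shCTRL, 109 and 115 CPM in shMEK5, and 119.8, 139.7 and 126 CPM in shERK5. All 3 shERK5 libraries lay above the controls, and the shMEK5 libraries overlapped them. It rose in shERK5 by a log2 fold change of 0.23 (SE 0.061, limma adjusted p = 0.00751) and stood at 0.03 (adjusted p = 0.709) in shMEK5. Wdr43 was at 467, 474 and 512 CPM in shCTRL, 569 and 565 CPM in shMEK5, and 594.5, 525 and 546 CPM in shERK5. It rose by 0.23 in shMEK5 (limma adjusted p = 0.0112), which was lost without shMEK5 replicate 1 (0.0605) or 2 (0.0554), and by 0.20 in shERK5 (adjusted p = 0.00985). Utp4, with values of -0.06 and 0.03 (adjusted p = 0.374 and 0.654), lay between 146 and 169 CPM in all 8 libraries, and its groups overlapped.

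Of the remaining 4, Rrp12, a factor for nuclear export of the small subunit, rose by 0.27 in shMEK5 (limma adjusted p = 0.0195) and 0.33 in shERK5 (adjusted p = 0.00273). It was at 105, 126 and 127 CPM in shCTRL, 136 and 151 CPM in shMEK5, and 146, 153 and 149 CPM in shERK5, and the shMEK5 call was lost without shMEK5 replicate 2 (adjusted p = 0.167). Rrp9, a protein of the box C/D particle that guides early cleavage of the precursor, rose by 0.17 in shMEK5 (limma adjusted p = 0.0418) and 0.24 in shERK5 (adjusted p = 0.00301). Its shMEK5 call was lost without shCTRL replicate 1 (0.0993), shCTRL replicate 3 (0.113), shMEK5 replicate 1 (0.0645) or shMEK5 replicate 2 (0.246), and with no filter (0.0665). Utp20, a large scaffold protein, and Tsr1, a late assembly factor, did not pass. Utp20 had log2 fold changes of 0.13 and 0.11 (limma adjusted p = 0.0676 and 0.0714) and passed in both without shCTRL replicate 3 (0.0215 and 0.0194). Tsr1 had values of 0.02 and 0.11 (limma adjusted p = 0.716 and 0.0593) and passed in shERK5 without shERK5 replicate 1 (0.0391).

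**Figure D3:**
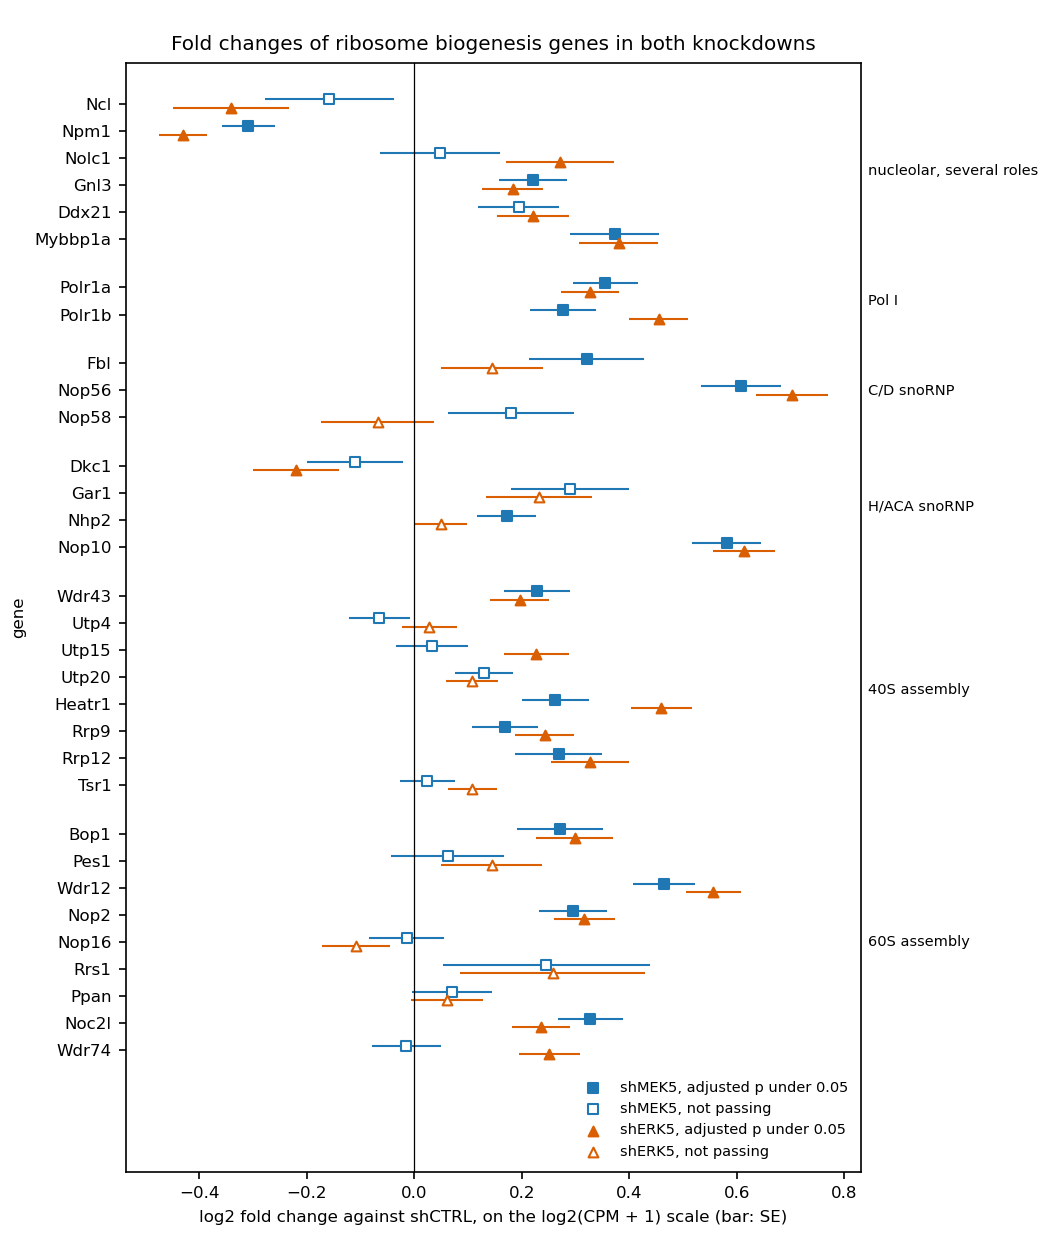
Log2 fold change against shCTRL on the log2(CPM + 1) scale (horizontal axis) of the 32 genes by role (vertical axis), with SE bars, for shMEK5 (blue squares) and shERK5 (orange triangles); filled symbols passed at an adjusted p under 0.05 and open ones did not. Nop56, Nop10 and Wdr12 lie furthest right, with 0.46 or more in both knockdowns, and Npm1 furthest left.

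Large subunit assembly factors gave 4 rises in shMEK5 and 5 in shERK5 among 9 genes, and no fall. The shares passing, 44.4% and 55.6%, lay below the 48.7% and 63.3% of all tested genes, of which 23.1% and 32% rose. Wdr12, Bop1 and Pes1 encode the 3 proteins of the PeBoW complex, which is needed for maturation of the large subunit. Wdr12 (Entrez Gene 57750, chr1:60071361-60098500) was at 226, 246 and 257 CPM in shCTRL, 335 and 336 CPM in shMEK5, and 354.5, 363 and 355 CPM in shERK5. The groups did not overlap, and the libraries of each knockdown lay close together. It rose by a log2 fold change of 0.46 (SE 0.058, limma adjusted p = 0.000108) in shMEK5 and 0.56 (SE 0.051, adjusted p = 7.93e-06) in shERK5. Its annotated span overlaps Carf.

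Bop1 was at 92.2, 109 and 109.7 CPM in shCTRL, 119 and 131 CPM in shMEK5, and 127.5, 122 and 133 CPM in shERK5. It rose by 0.27 (SE 0.080, limma adjusted p = 0.0171) and 0.30 (SE 0.072, adjusted p = 0.00415), the former lost without shMEK5 replicate 2 (0.15). Pes1 was at 217, 196.5 and 199.7 CPM in shCTRL, 198 and 230.0 CPM in shMEK5, and 201, 259 and 221 CPM in shERK5, so that its groups overlapped. Its log2 fold changes were 0.06 (SE 0.105, limma adjusted p = 0.649) and 0.14 (SE 0.094, adjusted p = 0.205), and it passed in shERK5 without shERK5 replicate 1 (0.23, adjusted p = 0.0356). The 3 genes of this complex thus differed in whether they passed, while no test compared them with each other.

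Nop2, a cytosine methyltransferase of rRNA, was at 269.9, 307 and 307 CPM in shCTRL, 348 and 374 CPM in shMEK5, and 366, 364 and 369 CPM in shERK5. It rose by 0.30 (SE 0.063, limma adjusted p = 0.00325) and 0.32 (SE 0.057, adjusted p = 0.000689). Noc2l, a nucleolar factor that also inhibits histone acetylation, was at 205.5, 208 and 209 CPM in shCTRL, 248 and 274 CPM in shMEK5, and 231, 257 and 247 CPM in shERK5. It rose by 0.33 (SE 0.060, limma adjusted p = 0.00131) and 0.24 (SE 0.054, adjusted p = 0.00312), and its groups did not overlap with the controls.

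Wdr74, which acts in the early maturation of the large subunit, rose in shERK5 alone of the pair of control comparisons. It was at 99.3, 111 and 103 CPM in shCTRL, 97.3 and 109 CPM in shMEK5, and 123, 125 and 124 CPM in shERK5. It rose by a log2 fold change of 0.25 in shERK5 (SE 0.057, limma adjusted p = 0.00303) and stood at -0.01 (adjusted p = 0.869) in shMEK5.

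The last 3 large subunit factors did not pass in either knockdown. Rrs1, needed for building the large subunit, was the most variable, at 54.6, 40.4 and 41.0 CPM in shCTRL, 47.7 and 59.8 CPM in shMEK5, and 45.4, 67.4 and 51.2 CPM in shERK5. Its log2 fold changes of 0.25 and 0.26 carried SEs of 0.193 and 0.172 (limma adjusted p = 0.324 and 0.224), so that a change of that size was within the replicate spread. Ppan was at 0.07 and 0.06 (limma adjusted p = 0.463 and 0.439). Nop16 was at -0.01 and -0.11 (limma adjusted p = 0.889 and 0.151) and passed in shERK5 without shERK5 replicate 2 (-0.16, adjusted p = 0.0418).

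The direct comparison of the knockdowns gave 4 higher genes in shERK5 (Wdr74, Heatr1, Utp15 and Polr1b) and none lower, 12.5% of the 32 beside 39.4% of all tested genes (22% up and 17.4% down). The median log2 difference of the 32 genes was 0.02, as it was over all tested genes. Wdr74 was higher by 0.27 (SE 0.064, limma adjusted p = 0.0076), Heatr1 by 0.20 (SE 0.063, adjusted p = 0.029), Polr1b by 0.18 (SE 0.061, adjusted p = 0.0399) and Utp15 by 0.19 (SE 0.068, adjusted p = 0.043). The libraries of the knockdowns did not overlap for these 4, nor for Npm1, Nhp2, Tsr1 and Wdr12, which did not pass. Overlap was not counted over all tested genes, so its absence adds no support to the 4 calls. Without shMEK5 replicate 1 none passed (adjusted p = 0.103 for Wdr74, 0.199 for Heatr1, 0.22 for Polr1b and 0.229 for Utp15). Without shMEK5 replicate 2, shERK5 replicate 2 or shERK5 replicate 3 only Wdr74 did: Heatr1 was then at 0.0557, 0.0828 and 0.0806, Polr1b at 0.0814, 0.0799 and 0.0795, and Utp15 at 0.0834, 0.127 and 0.0773. Scaling by RLE or TMM factors, edgeR and DESeq2 each ended the calls of Polr1b (adjusted p between 0.0745 and 0.0852) and Utp15 (0.0575 to 0.063) and brought in Npm1 as lower (0.0409 to 0.0479). Polr1b was also lost without shCTRL replicate 2 (0.0501) or shERK5 replicate 1 (0.061). Utp15 was also lost without shCTRL replicate 2 (0.0573) or 3 (0.0617), and when only the libraries of the knockdowns were fitted. Npm1 was 0.12 lower on the log2 scale in shERK5 than in shMEK5 with groups that did not overlap (log2 difference -0.12, limma adjusted p = 0.0763). Leaving out shERK5 replicate 1 brought in Nolc1 upward (0.33, adjusted p = 0.011) and Nop58 downward (-0.37, adjusted p = 0.00284), and leaving out shERK5 replicate 2 brought in Fbl downward (-0.29, adjusted p = 0.0234).

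The further genes of the pathway, 136 genes of 5 groups that are not among the 32, were also more often higher than lower. In shMEK5 49 rose and 14 fell (median log2 fold change 0.12), and shERK5 gave 65 rises and 19 falls (median 0.14). Their shares that rose were 36.0% and 47.8%, beside 23.1% and 32% of all tested genes. In either direction 46.3% and 61.8% of them passed, close to the 48.7% and 63.3% of all tested genes. The 15 genes of the nuclear exosome, which trims and degrades pre-rRNA, gave 6 rises in shMEK5 and 8 in shERK5 and no fall, with medians of 0.20 and 0.23. Thus 40% and 53.3% of these 15 genes passed. Of these the exosome subunit Exosc2 rose by 0.70 and 0.63 (limma adjusted p = 1.11e-05 and 4.63e-06), the catalytic subunit Dis3 by 0.52 and 0.43, and the cofactor Mphosph6 by 0.51 and 0.68. Exosc3 rose by 0.31 in shERK5 and was at -0.04 in shMEK5 (adjusted p = 0.633).

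Of 48 further large subunit factors, 18 were higher and 4 lower in shMEK5, while 23 were higher and 8 lower in shERK5 (medians 0.11 in both). The shares passing were 45.8% and 64.6%, beside 48.7% and 63.3% of all tested genes. Eif6, which keeps the unfinished large subunit from joining the small one, rose by 0.63 and 0.60 (limma adjusted p = 9.29e-06 and 2.85e-06). The 42 further small subunit factors gave 16 rises and 6 falls in shMEK5 and 21 rises and 7 falls in shERK5 (medians 0.10 and 0.14). Of these 42 genes 52.4% and 66.7% passed. Ngdn rose by 0.22 in shMEK5, lost without shMEK5 replicate 2 (adjusted p = 0.0908), and by 0.62 in shERK5 (limma adjusted p = 6.5e-06). The 18 genes for snoRNP assembly and rRNA modification gave 7 rises and 1 fall in shMEK5 and 9 rises and 1 fall in shERK5 (medians 0.16 in both). Of these 18 genes 44.4% and 55.6% passed. Bud23, a methyltransferase of small subunit rRNA, rose by 0.30 and 0.47, the former lost without shMEK5 replicate 2 (adjusted p = 0.0585).

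The other RNA polymerase I genes moved in both directions. Among 13 there were 2 rises and 3 falls in shMEK5 and 4 rises and 3 falls in shERK5, with medians of -0.05 and 0.06. The shares passing, 38.46% and 53.85%, lay below the 48.7% and 63.3% of all tested genes. Those that fell, 23.08% in each, were fewer than the 25.6% and 31.3% of all tested genes, so the counts do not set this group apart. Polr1c, a subunit shared with RNA polymerase III, was at 157, 160.3 and 145.5 CPM in shCTRL, 92.0 and 105 CPM in shMEK5, and 80.4, 86.9 and 81.5 CPM in shERK5. Polr1c thus lay below every control in both knockdowns, with log2 fold changes of -0.65 (SE 0.069, limma adjusted p = 4.07e-05) and -0.89 (SE 0.061, adjusted p = 1.19e-06). Ubtf, the upstream binding factor that opens rRNA genes for transcription, was at 199, 189 and 178 CPM in shCTRL, 132 and 143 CPM in shMEK5, and 134, 147 and 139.9 CPM in shERK5. Ubtf fell by 0.45 (SE 0.064, limma adjusted p = 0.000256) and 0.42 (SE 0.057, adjusted p = 0.000105) on the log2 scale. Polr1h, a small subunit of the polymerase, rose by 0.22 in shMEK5, lost without shMEK5 replicate 2 (adjusted p = 0.137), and by 0.42 in shERK5 (limma adjusted p = 6.74e-05).

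The Myc family was read because of the E-box. Myc itself was at 276, 339 and 368 CPM in shCTRL, 457 and 432 CPM in shMEK5, and 342, 319 and 376 CPM in shERK5. It lay above the controls in shMEK5 and overlapped them in shERK5. Myc rose by a log2 fold change of 0.45 in shMEK5 (SE 0.115, limma adjusted p = 0.0113, lost without shMEK5 replicate 1 at 0.0786) and stood at 0.08 in shERK5 (SE 0.103, adjusted p = 0.504). Mycl, a relative of Myc, rose in shMEK5 from 3.00, 3.35 and 3.22 CPM to 6.98 and 6.56 CPM (log2 fold change 0.89, limma adjusted p = 1.65e-05) and was at 2.92, 2.91 and 2.83 CPM in shERK5 (-0.11, adjusted p = 0.233). Max, the partner through which Myc binds DNA, was at -0.01 and 0.05 (limma adjusted p = 0.889 and 0.479).

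Some genes of the Mxd and Mnt proteins, which compete with Myc for Max, were lower. Of the 8 tested Myc family genes, 2 rose and 2 fell in shMEK5 (50% passing, beside 48.7% of all tested genes). In shERK5 0 rose and 3 fell, Mxd3 among them (37.5% passing, beside 63.3%). The shares that fell, 25% and 37.5%, stood beside 25.6% and 31.3% of all tested genes, so the counts do not set this family apart. Mxd4 fell in both, from 9.76, 10.8 and 11.0 CPM in shCTRL to 6.14 and 5.83 CPM in shMEK5 and 5.83, 5.64 and 6.25 CPM in shERK5 (log2 fold changes -0.72 and -0.74, limma adjusted p = 7.11e-05 and 1.48e-05). Mxd1 fell in shMEK5 (-0.44, limma adjusted p = 0.00122) and was at -0.11 in shERK5 (adjusted p = 0.193). Mxd3 was low throughout, at 2.36, 1.64 and 1.95 CPM in shCTRL, 1.30 and 1.52 CPM in shMEK5, and 0.633, 0.564 and 0.765 CPM in shERK5. It passed the filter of 1 CPM only through shCTRL and shMEK5, so its value of -0.85 in shERK5 is given as a description. That value also understates the difference, since the added pseudocount of 1 is as large as the levels. In shMEK5 Mxd3 was at -0.30 (limma adjusted p = 0.0552), and it passed without shCTRL replicate 2 (0.0251). Mnt fell in shERK5 (-0.29, limma adjusted p = 0.0126), a call lost without shCTRL replicate 3 (0.0534), and was at -0.13 in shMEK5 (adjusted p = 0.284). Mxi1 was at -0.04 in both (limma adjusted p = 0.728 and 0.676). Mycn was below the filter, with 1 read in 1 of the 8 libraries.

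The ribosomal proteins are the parts that the assembly factors build into subunits. Among 49 cytosolic ribosomal protein genes there were 6 rises and 2 falls in shMEK5 (16.3% passing, beside 48.7% of all tested genes), and 12 rises and 5 falls in shERK5 (34.7%, beside 63.3%). Their medians were 0.05 and 0.04. Rpl8 rose by 0.29 and 0.30 (limma adjusted p = 0.00099 and 0.000211), and Rps6 by 0.20, lost without shMEK5 replicate 2 (adjusted p = 0.0739), and 0.34. Rpl6 fell by 0.50 and 0.73 on the log2 scale (limma adjusted p = 1.87e-05 and 3.49e-07). Ribosomal protein genes have many processed copies too.

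**Figure D4:**
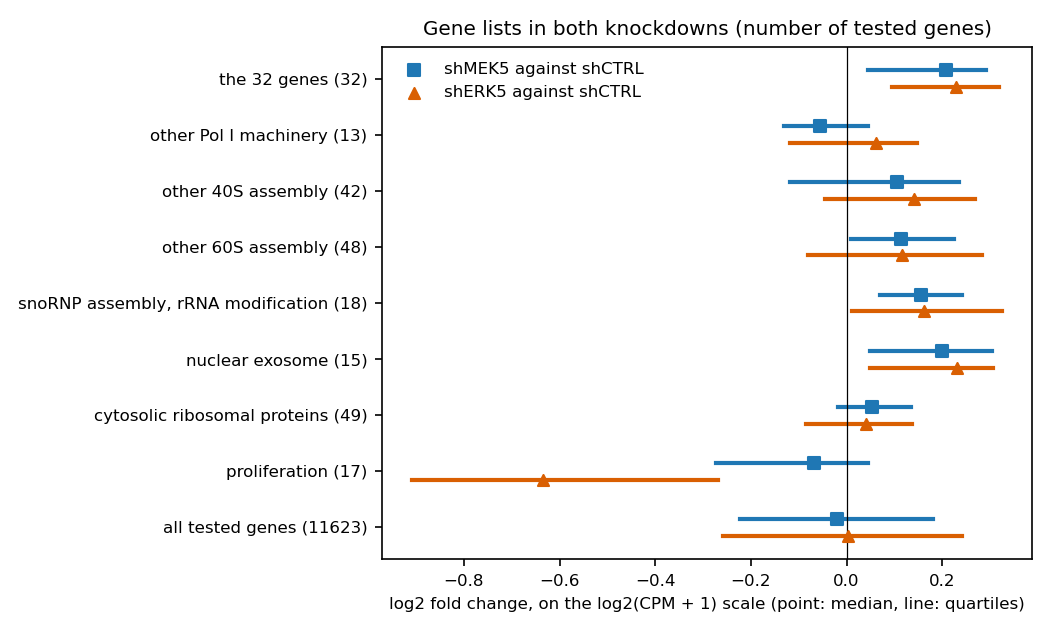
Median (points) and quartiles (lines) of the log2 fold change against shCTRL (horizontal axis, log2(CPM + 1) scale) for the 32 genes, further gene lists and all tested genes (vertical axis, number of tested genes in brackets), in shMEK5 (blue squares) and shERK5 (orange triangles). The medians of the 32 genes were 0.21 and 0.23, and that of the proliferation genes in shERK5 was -0.63.

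Some of the 32 genes carry other transcription units. In the GENCODE annotation 8 of them (Ncl, Gnl3, Nop56, Nop58, Dkc1, Wdr43, Tsr1 and Ppan) hold 23 snoRNA genes on the same strand. These hosts gave 3 rises and no fall in shMEK5, and 3 rises and 2 falls in shERK5, which sets 3 of 8 and 5 of 8 beside the 48.7% and 63.3% of all tested genes. The 12 snoRNAs listed in the tables reached at most 1.03 CPM in any library, and snoRNA levels were not analysed further. A total of 12 of the 32 overlap another annotated gene, 9 of them a protein-coding one (Gnl3, Mybbp1a, Nop56, Dkc1, Nhp2, Tsr1, Bop1, Wdr12 and Noc2l). For Ncl the overlapping gene is Gm24148, a miRNA in RefSeq that is also among the 23 snoRNA genes of GENCODE. The libraries were stranded, but the sources used here do not state whether counting used strand, so reads in those overlaps cannot be assigned with certainty.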

How the data were processed

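RNA-seq libraries of 3 groups of 4T1 cells were grouped by the hairpin in their titles. The submitters' processing notes name STAR and mm10. The version of STAR, the annotation and the counting program are not stated in the sources used here. The values the authors deposited are CPM, reads per 1000000 reads assigned to 24454 genes, and 100% of the values were whole reads within 0.01 read, 1 read being worth 0.0186 to 0.0242 CPM. RefSeq (GRCm38.p6) supplied symbols for 24374 genes. The test was limma (3.58.1, R 4.3.3) with trend and robust moderation on log2(CPM + 1), with a mean per group over all 8 libraries. Benjamini-Hochberg adjustment was made over the 11623 genes that had at least 1 CPM in at least 2 libraries. The test was also run on simulated data, and the outcome of that run is not given here. On the recovered read counts edgeR (4.0.16) and DESeq2 (1.42.0) were run as alternatives. Further alternatives were other scaling factors, pseudocounts and filters, a fit of only the 2 groups compared, a replicate block and each library left out. The 32 genes and the gene lists were chosen with earlier results of these data known. All 32, the hairpin targets and all Myc family genes could be named, and from each other list at most 4 genes with the smallest adjusted p in either knockdown. Replicates of a group differed by more than counting noise (chi-square per degree of freedom 8.22 to 42.5). Group sizes of 2 and 3 limit precision more than depth does. Of the leukocyte markers, 1 is not reported here.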

Additional observations from a re-analysis of the deposited data

How the results depend on the processing

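Over 1632 combinations of a gene of the 32, a comparison and an alternative, no gene that passed in either setting changed direction; 51 values changed sign with neither setting passing, the largest at 0.15 on the log2 scale. The median log2 fold change of the 32 genes ran from 0.16 to 0.23 in shMEK5 and from 0.17 to 0.26 in shERK5 with 1 library left out, and from 0.20 to 0.23 and 0.22 to 0.23 under the other alternatives. With 1 library left out, the number that rose ran from 7 (without shMEK5 replicate 2) to 19 in shMEK5 and from 15 to 21 in shERK5, and the number that fell from 1 to 2 (without shCTRL replicate 2) in shMEK5 and from 1 (without shCTRL replicate 3) to 4 in shERK5. Between the knockdowns 0 to 4 were higher and 0 to 1 lower in shERK5, and 2864 (without shMEK5 replicate 1) to 4825 of all tested genes passed. The other alternatives gave 14 to 19 rises in shMEK5 and 17 to 19 in shERK5. The comparison of the knockdowns depended most on the settings: RLE size factors, TMM factors, edgeR and DESeq2 each gave 2 higher genes (Wdr74 and Heatr1) and 1 lower (Npm1), and no filter gave 1 higher (Wdr74). RLE, TMM and edgeR added Ddx21, Gar1 and Utp20 to the rises in shMEK5, and with no filter Nolc1 and Dkc1 in shERK5 no longer passed (adjusted p = 0.0652 and 0.0687). A fit of only the 2 groups compared added Ddx21, Gar1 and Nop58 to the rises in shMEK5. Leaving out libraries also reduces the samples in the fit; other causes were not tested. Where shMEK5 was left with 1 library, its spread was taken from the other groups.

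The labels do not state that replicate numbers pair the libraries, and same-numbered libraries did not all deviate together (correlations from -0.19 to 0.52). The highest were between the knockdowns, 0.46 for their replicates 1 and 0.52 for their replicates 2. Between shMEK5 replicate 1 and shERK5 replicate 2 the correlation was -0.52, and -0.46 with the numbers exchanged. The deviations of the 2 shMEK5 libraries mirror each other, so these values are not independent. A source of variation shared by same-numbered knockdown libraries was not tested. With a replicate block 2 genes were higher in shERK5 than in shMEK5, where 4 were without it (Polr1b and Utp15 were lost at 0.0569 and 0.0516), and Fbl in shMEK5 no longer passed (adjusted p = 0.052), while Tsr1 in shERK5 did (0.0424).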
